A study of Saccharomyces cerevisiae with 5 samples.

Results

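A set of 10 genes that haploid yeast of mating type a (MATa) use to send and answer the mating signal was followed in 3 wild-type and 2 Δrsf2 cultures: STE2, MFA1, MFA2, BAR1, STE6, AGA1, AGA2, FAR1, FUS1 and STE12. They were chosen by name, as the probe sets that the platform annotation assigns to each of these genes alone, which gave 11 probe sets for 10 genes out of 6504 such probe sets for 5656 genes. The wild type was Saccharomyces cerevisiae BY4741, a haploid laboratory strain of mating type a, and the mutant was isogenic and lacked RSF2 (YJR127C or ZMS1), the gene of a zinc-finger protein. The labels do not say which cassette replaced RSF2 or how many clones were used. By the titles and the growth text of the labels, all cultures grew in 50 ml of rich medium with glycerol, which yeast can use only by respiration, to an optical density (A600) of 0.6, and no pheromone or partner strain is mentioned for any of them. The treatment text of the same labels instead describes cells moved from dextrose into glycerol medium for a time that is not given, so whether the signals stand for steady growth or for a shift cannot be told from the labels. The labels call the samples biological replicates, and each was hybridised to 1 one-colour Affymetrix array.

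Yeast cells of the 2 mating types find each other by peptide pheromones. A MATa cell secretes a-factor and carries the receptor for α-factor, and binding of α-factor starts a cascade of a G protein and MAP kinases that ends at the transcription factor Ste12. Ste12 then raises the genes for cell adhesion, cell-cycle arrest and cell fusion. Without a partner the pathway runs at a low basal level, and the a-specific genes are kept on because MATa cells lack the α2 repressor.

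Signals are given in arbitrary units after each array was rescaled to a common trimmed mean of 500, and they compare arrays for 1 probe set, not 1 gene with another. Before rescaling the trimmed mean was 100.1 in Δrsf2 replicate 1 and 500.3 to 500.7 in the other 4 arrays. Values under a floor of 28.1, the 10th percentile of single-gene probe sets, were set to the floor before log2 was taken. The arrays fell into 2 sets by a hybridisation spike-in (CreX), which reached 56025 on the first wild-type and 59709 on the first Δrsf2 array, against 2715 to 9393 on the other 3. Differences within these high and low sets, which were defined from the data, are given beside the pooled ones. ACT1, whose 3′ over 5′ signal ratio is a measure of RNA integrity, had a ratio of 4.91 in Δrsf2 replicate 1 and 1.55 to 2.76 elsewhere. Among 19 control probe sets for other bacterial genes and for mouse genes, the highest signal was 121 in Δrsf2 replicate 1, 48.0 in wild-type replicate 1 and 13.9 to 17.8 in the other arrays. Their median was 28.5 in Δrsf2 replicate 1, so a signal above the floor there need not be above background. Elsewhere that median was 0.999 to 5.59. The part of these array features in the results was not tested.

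**Figure D1:**
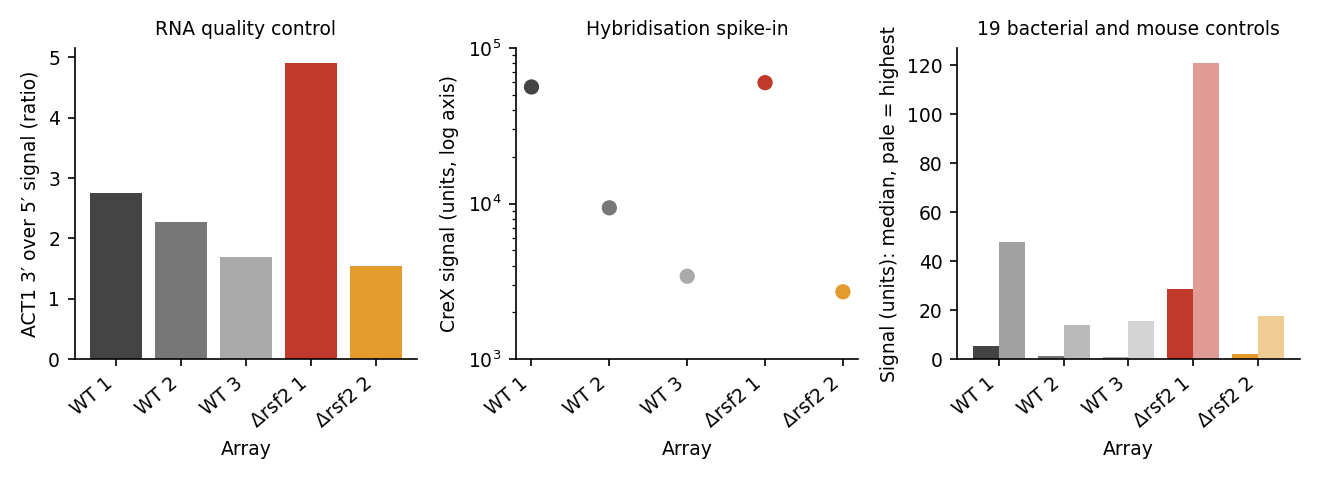
Control values of each array: the 3′ over 5′ signal ratio of ACT1 (left), the signal of the CreX spike-in on a log axis (middle), and the median (solid) and highest (pale) signal of 19 bacterial and mouse control probe sets (right). Δrsf2 replicate 1 has the highest ratio (4.91) and the highest control background (121), and shares a high CreX signal with wild-type replicate 1.

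The mating type was checked against genes that only α cells express strongly. The α-factor gene MF(ALPHA)1 had 45.0, 6.80 and 39.7 for the wild-type arrays and 32.5 and 32.9 for the mutant arrays, and MF(ALPHA)2 had 10.8 to 32.5 over the 5 arrays, so both lay near or under the floor. STE3, the a-factor receptor of α cells, had 80.3 to 127, and AFB1, the a-factor barrier gene of α cells, 93.8 to 197, with a log2 difference of -0.44 ± 0.59 (SE). SAG1, the α-agglutinin, was well above the floor on every array, at 311, 377 and 606 for the wild-type arrays and 498 and 411 for the mutant arrays, and so did not read as absent. The 6 a-specific members (STE2, MFA1, MFA2, BAR1, STE6 and AGA2) were above the floor on all 5 arrays, as were STE3, AFB1 and SAG1. Only 8.73 to 11.1% of single-gene probe sets lay under the floor on an array, so being above it does not tell the mating type. Among haploid-specific genes RME1, a repressor of meiosis, had 729 to 2882, NEJ1, a factor of DNA end joining, 246 to 648, and HO, the mating-type endonuclease gene, 31.2 to 252. RME1 was highest in Δrsf2 replicate 2 and HO lowest there. HMRA1, the a1 gene, had 3 probe sets that disagreed, at 2039 to 4763, 54.2 to 235 and 3.40 to 111, and related copies lie at the other mating-type loci. Genes of meiosis and sporulation were read for diploid cells. SPO11 was under the floor throughout (1.20 to 7.99), SPO13 had 6.90 to 80.9, SPS1 19.8 to 123, SPS4 20.6 to 182, IME2 36.2 to 66.9, NDT80 69.3 to 259 and IME1 174 to 723. In bulk cultures a lower signal from fewer cells of a type and one from less RNA per cell cannot be told apart.

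RSF2 itself had signals of 204, 254 and 416 for the wild-type arrays and 9.49 and 3.30 for the mutant arrays, both under the floor, so it was at least 9.90-fold lower and the labels match the genotype (limma adjusted p = 0.414). The single comparison asks which transcripts differ between the strains on glycerol. It was tested with limma over 5561 genes, with Benjamini-Hochberg adjustment and a threshold of 0.05.

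None of the 10 members passed this test, and neither did any other gene: 0 of 5561 (0%) had an adjusted p under 0.05, and each member was at 0.9995. At an unadjusted p under 0.05 there were 0 members, against 3.79% of all genes (211). Without Δrsf2 replicate 1 there was 1 member among 498 genes, without Δrsf2 replicate 2 there were 2 among 801, and without wild-type replicate 2 or 3 there were 0 among 64 or 121. There was also 1 member with quantile normalisation, median centring or the higher floor, among 277, 257 and 193 genes. By value 6 members were higher in Δrsf2 and 4 lower, against 52.2% and 47.8% of all genes. The median log2 difference of the members was 0.21, against 0.03 for all genes, and both were negative in the values as deposited (-0.96 and -1.08). FAR1 was the one member at least 2-fold apart with no overlap between the groups, and it was higher in Δrsf2, as were 3.29% of all genes by the same rule, while 2.54% were lower. With quantile normalisation the rule gave 112 higher and 226 lower genes in place of 183 and 141, with FAR1 still the one member.

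**Figure D2:**
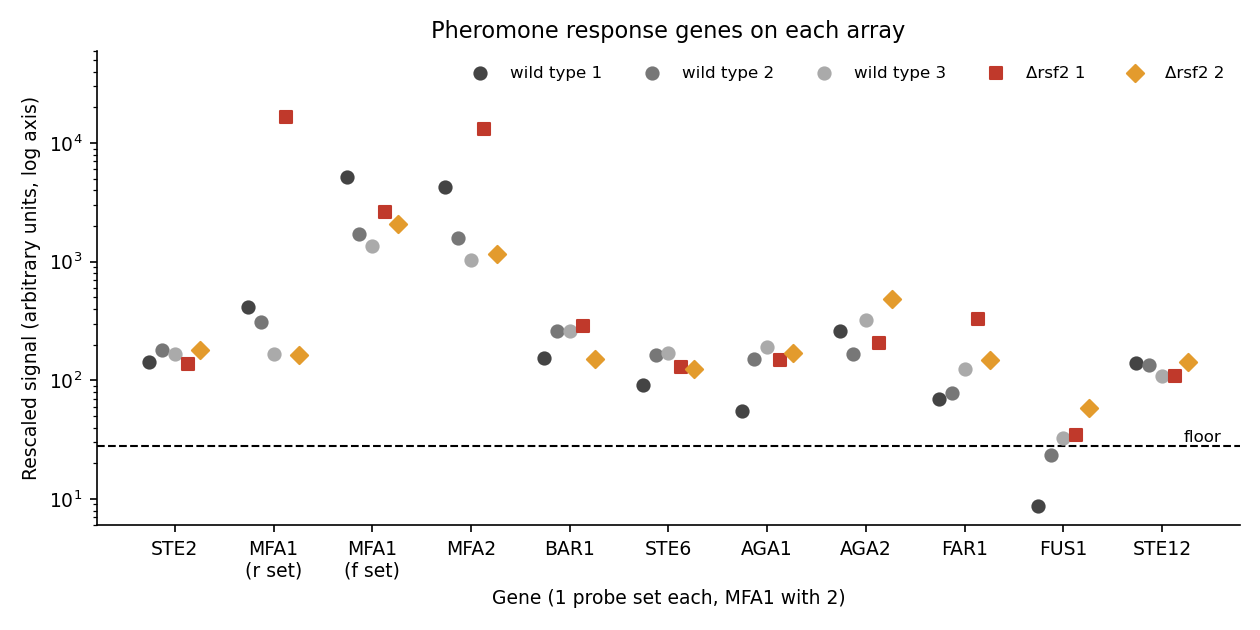
Rescaled signal (arbitrary units, log axis) of the 11 single-gene probe sets of the 10 genes, with 1 point per array: circles for the 3 wild-type arrays, a square and a diamond for the 2 Δrsf2 arrays. The dashed line is the floor of 28.1; the r set of MFA1 stands at 16443 in Δrsf2 replicate 1 and at 164 to 417 elsewhere.

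The mating signal that MATa cells send is a-factor, a short lipid-modified peptide made from precursors that MFA1 and MFA2 both encode. MFA1 (YDR461W) has 2 probe sets, and they did not give the same picture. The f set, whose higher mean log2 signal made it the one tested, had 5140, 1700 and 1350 for the wild-type arrays and 2625 and 2076 for the mutant arrays. Both mutant arrays lay inside the wild-type range, and wild-type replicate 1 was the highest array. The fitted log2 difference was 0.04 ± 0.61 (SE), with -0.97 in the high and 0.45 in the low spike-in set. The r set had 417, 307 and 167 for the wild-type arrays, 16443 for Δrsf2 replicate 1 and 164 for replicate 2. Δrsf2 replicate 1 was thus 39.4-fold above the next highest array, while Δrsf2 replicate 2 was the lowest of all. Of the 6504 single-gene probe sets this was the one that stood highest above the other 4 arrays in Δrsf2 replicate 1. Probe sets marked f or r are those for which the array's makers could not choose fully specific probes, so related transcripts can add to them.

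MFA2 (YNL145W), the other a-factor gene, had 4250, 1595 and 1027 for the wild-type arrays, 13184 for Δrsf2 replicate 1 and 1155 for replicate 2. The first mutant array was 3.10-fold above the highest wild-type array, and the second lay inside the wild-type range. The 2 mutant cultures differed 11.4-fold from each other, more than any other pair of mutant values among the tested probe sets of these genes. MFA2 had a fitted log2 difference of 1.03 ± 0.99 (SE) and an adjusted p of 0.9995 in limma. Leaving out Δrsf2 replicate 2 gave 2.79 and leaving out replicate 1 gave -0.72, so the sign rests on 1 array. Within the high spike-in set it was 1.63 and within the low set -0.15. On Δrsf2 replicate 1, 228 of the 6504 single-gene probe sets stood at least 3-fold above all other arrays, against 58 in Δrsf2 replicate 2 and 1 to 3 in each wild-type array. Among probe sets that also reached 1000 on another array, such as that of MFA2, the numbers were 8, 10 and 0.

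Both a-factor genes are very short, with coding lengths of 111 bases for MFA1 and 117 for MFA2. Of protein-coding genes under 200 bases with a mean signal of at least 100, the 51 probe sets had a median log2 distance from the wild-type mean of 0.50 on the first wild-type array, 0.26 on the first Δrsf2 array, and -0.24 to -0.15 on the others. For the 4878 probe sets of longer genes the medians were -0.345 and -0.06 in those 2 arrays and 0.05 to 0.26 in the others. The tested set of MFA1 and that of MFA2 stood at 1.17 and 1.15 on that wild-type array, and at 0.21 and 2.79 on that Δrsf2 array. The part of transcript length in the a-factor signals was not tested.

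The genes for making and exporting a-factor gave few large differences. STE6 (YKL209C), the transporter that exports a-factor, had 92.0, 163 and 169 for the wild-type arrays and 130 and 124 for the mutant arrays. The 2 mutant arrays were close to each other and inside the wild-type range, with wild-type replicate 1 lowest. Its log2 difference was -0.10 ± 0.59 (SE), 0.50 in the high and -0.42 in the low spike-in set. Of 7 genes for a-factor maturation 3 were higher and 4 lower by value, the median log2 difference was -0.16 (0.09 within the high and -0.30 within the low spike-in set), and 0 were called. RCE1, which cuts the end off the farnesylated precursor, had 287, 380 and 229 for the wild-type arrays and 138 and 147 for the mutant arrays. Its groups did not overlap, and the log2 difference was -1.04 ± 0.56 (SE), with an adjusted p of 0.9995. RAM2, a subunit of the farnesyltransferase that attaches the lipid, was at -0.43 ± 0.41, with overlapping groups.

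STE2 and BAR1 deal with the α-factor that reaches a MATa cell. STE2 (YFL026W), the α-factor receptor, had 143, 180 and 166 for the wild-type arrays and 137 and 180 for the mutant arrays. The 5 arrays spanned 1.32-fold from lowest to highest, and 1.89% of all genes had a narrower span, where the median span was 2.80-fold. The log2 difference was -0.05 ± 0.57 (SE). BAR1 (YIL015W), the secreted protease that destroys α-factor, had 155, 262 and 259 for the wild-type arrays, 288 for Δrsf2 replicate 1 and 151 for replicate 2. The mutant arrays were the highest and the lowest of the 5, on opposite sides of the wild type. The pooled log2 difference of -0.07 ± 0.60 (SE) therefore joins 0.89 in the high and -0.79 in the low spike-in set. ASG7, another a-specific gene, which acts on signalling after mating, was at 0.31 ± 0.66 with overlapping groups.

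AGA1 and AGA2 make the a-agglutinin, the adhesion protein of the MATa cell surface. AGA1 (YNR044W), the subunit anchored in the wall, had 55.5, 151 and 192 for the wild-type arrays and 148 and 170 for the mutant arrays. Wild-type replicate 1 was low, and both mutant arrays lay inside the wild-type range. The log2 difference was 0.44 ± 0.69 (SE), with 1.42 in the high spike-in set, which holds that low wild-type array, and 0.00 in the low set. Without wild-type replicate 1 it was -0.10. AGA2 (YGL032C), the subunit that binds the partner cell, had 261, 168 and 325 for the wild-type arrays, 205 for Δrsf2 replicate 1 and 482 for replicate 2. One mutant array lay within the wild-type range and the other was the highest of the 5. The log2 difference was 0.38 ± 0.61 (SE), with -0.35 in the high and 1.04 in the low spike-in set.

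Cell-cycle arrest, fusion and transcription are the answer to the signal inside the cell. FAR1 (YJL157C), the inhibitor of G1 cyclin and Cdc28 that also guides growth towards a partner, had 70.1, 77.5 and 126 for the wild-type arrays and 327 and 150 for the mutant arrays. Both mutant arrays were above every wild-type array, and Δrsf2 replicate 1 was 2.19 times Δrsf2 replicate 2. By geometric mean FAR1 was 2.51-fold higher, with a log2 difference of 1.33 ± 0.63 (SE), an unadjusted limma p of 0.0669 and an adjusted p of 0.9995. It was 2.22 in the high and 0.60 in the low spike-in set, and 0.77 without Δrsf2 replicate 1, which is less than 2-fold. In the values as deposited it was 0.17, where the median of all genes was -1.08.

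FUS1 (YCL027W), a membrane protein needed for cell fusion and a widely used readout of pheromone signalling, had 8.79, 23.7 and 32.6 for the wild-type arrays and 35.0 and 58.8 for the mutant arrays. Both mutant arrays were above the wild-type arrays, but 2 wild-type values were under the floor and the value of Δrsf2 replicate 1 was under the 121 that its highest bacterial or mouse control reached. The groups of FAR1 and FUS1 were the 2 that did not overlap, both with the mutant higher, against 8.52% of all genes with the mutant higher and 7.43% with it lower. The log2 difference of FUS1 was 0.62 ± 0.38 (SE), with 0.32 in the high and 0.96 in the low spike-in set and an adjusted p of 0.9995. Without a floor it was 1.26.

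STE12 (YHR084W), the transcription factor at the end of the pathway, had 141, 135 and 108 for the wild-type arrays and 110 and 143 for the mutant arrays. The 5 arrays spanned 1.32-fold, and 1.94% of all genes had a narrower span. In Δrsf2 replicate 1 the highest bacterial or mouse control reached 121, so STE12 lay under it there. STE6, STE2 and AGA1, at 130, 137 and 148, lay little above it. The log2 difference of STE12 was -0.02 ± 0.56 (SE), with -0.36 in the high and 0.24 in the low spike-in set. STE2 and STE12 were the members of narrowest span, and MFA2 that of widest among the tested probe sets, at 12.8-fold.

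**Figure D3:**
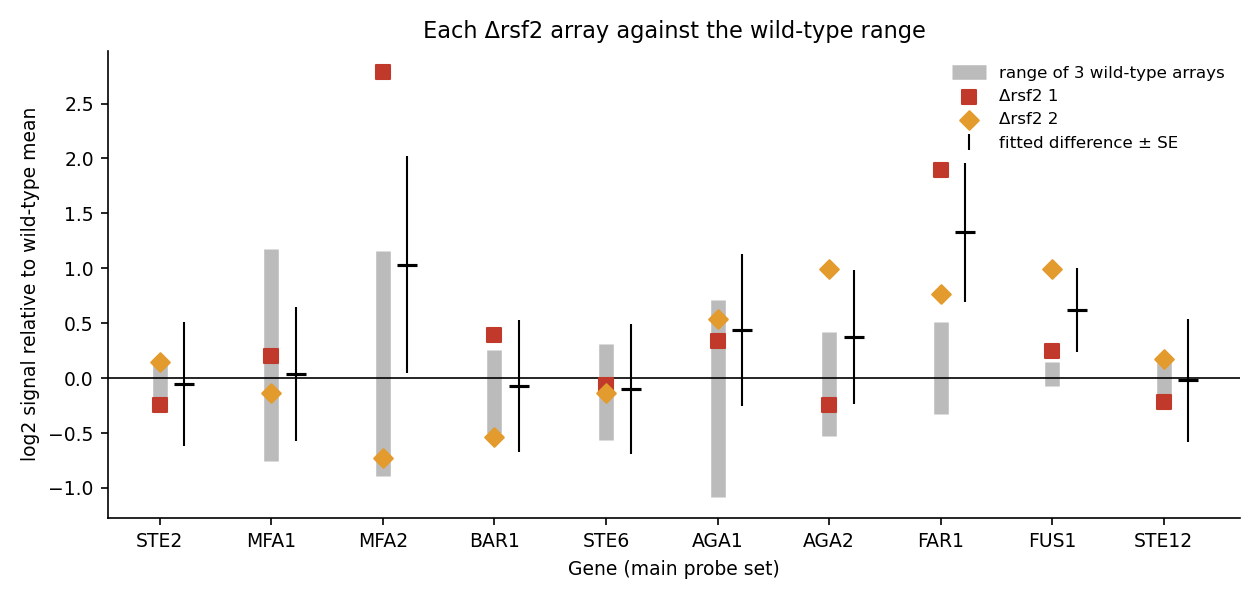
Log2 signal relative to the wild-type mean for each gene's tested probe set: the grey bar is the range of the 3 wild-type arrays, the square Δrsf2 replicate 1, the diamond Δrsf2 replicate 2, and the black mark the fitted difference ± SE. Only FAR1 and FUS1 have both mutant arrays above the bar. For 6 of the 10 genes, MFA2 and BAR1 among them, the mutant arrays lie on opposite sides of 0.

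Read apart, the 2 mutant cultures gave different sets of high genes. In Δrsf2 replicate 1, MFA2, BAR1, FAR1 and FUS1 were above the wild-type range and STE2 was below it, so that 40% were above and 10% below, where all genes had 31.0% and 27.3%. In Δrsf2 replicate 2, AGA2, FAR1, FUS1 and STE12 were above and BAR1 was below, again 40% and 10%, against 28.9% and 24.3%. STE2 and STE12 were outside by little, at 137 against a lowest wild-type value of 143 and at 143 against a highest of 141. The same held for BAR1 in Δrsf2 replicate 2, at 151 against a lowest of 155. FUS1 in Δrsf2 replicate 1 was at 35.0 against a highest of 32.6. For 6 of the 10 genes the mutant arrays lay on opposite sides of the wild-type mean, against 54.6% of all genes. That share also counts genes with only 1 mutant array away from the mean, as where the other values sit at the floor. The SD on the log2 scale was larger in the mutant than in the wild type for 7 of 10 members, against 58.2% of all genes, but the members' median SD was 0.404 in the mutant and 0.466 in the wild type (0.600 and 0.469 over all genes). The members' median relative to the wild-type mean was 0.22 and 0.16 on the 2 mutant arrays and -0.13, 0.01 and 0.19 on the wild-type arrays. Over all genes it was -0.002 and 0.02 on the mutant arrays and -0.31, 0.05 and 0.23 on the wild-type arrays.

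Genes of the signalling cascade between Ste2 and Ste12 showed no common direction. Of 17 genes, from the G protein through the MAP kinases to the Ste12 inhibitors, 8 were higher and 9 lower by value, the median log2 difference was -0.03, and 0 were called. That median was 0.81 within the high and -0.34 within the low spike-in set, and -0.25 to 0.31 with single arrays left out. CDC42, the small GTPase that links the G protein to Ste20 and to polarity, had 3409, 2963 and 3371 for the wild-type arrays and 1444 and 1660 for the mutant arrays. All wild-type arrays were above both mutant arrays, and the log2 difference was -1.07 ± 0.41 (SE), with an unadjusted p of 0.0290 and an adjusted p of 0.9995. Leaving out single arrays gave -1.17 to -0.97. STE18, the G protein γ subunit, had 405, 394 and 385 for the wild-type arrays and 747 and 522 for the mutant arrays. The groups did not overlap, and the log2 difference of 0.66 ± 0.43 turned to -0.50 in the values as deposited. Other members of the cascade had overlapping groups, such as GPA1, the G protein α subunit, with 217, 305 and 408 for the wild-type arrays and 577 and 253 for the mutant arrays. FUS3, the MAP kinase of mating, had 3 probe sets, of which 1 lay under the floor on every array.

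Other genes that pheromone induces were more often higher than lower by value, and none was called. Of 18 genes 14 were higher and 4 lower, against 52.2% higher among all genes, and the median log2 difference was 0.19. FIG1, PRM6 and PRM9 had every wild-type array under the floor. They entered the test through a mutant array and could only come out higher, so the count cannot tell a direction for them. The median was -0.87 in the values as deposited, 0.59 within the high spike-in set and -0.19 within the low one. FIG1, a membrane protein of mating cells, had a low signal, with 4.59, 13.7 and 18.1 for the wild-type arrays, 121 for Δrsf2 replicate 1 and 17.7 for replicate 2, so that 1 array was above the floor, at the level of its highest bacterial or mouse control. By their rank of p the list's first genes were lower in the mutant. PRM2, a pheromone-regulated membrane protein, had 85.6, 121 and 290 for the wild-type arrays and 43.4 and 69.2 for the mutant arrays, a log2 difference of -1.40 ± 0.67 (SE) without overlap. GIC2, an effector of Cdc42, had 291, 628 and 435 for the wild-type arrays but 400 and 37.9 for the mutant arrays, a log2 difference of -1.81 ± 0.94 that rests on Δrsf2 replicate 2, since it was -0.11 without that array. FIG1, PRM6 and PRM9 were named after their values were seen.

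**Figure D4:**
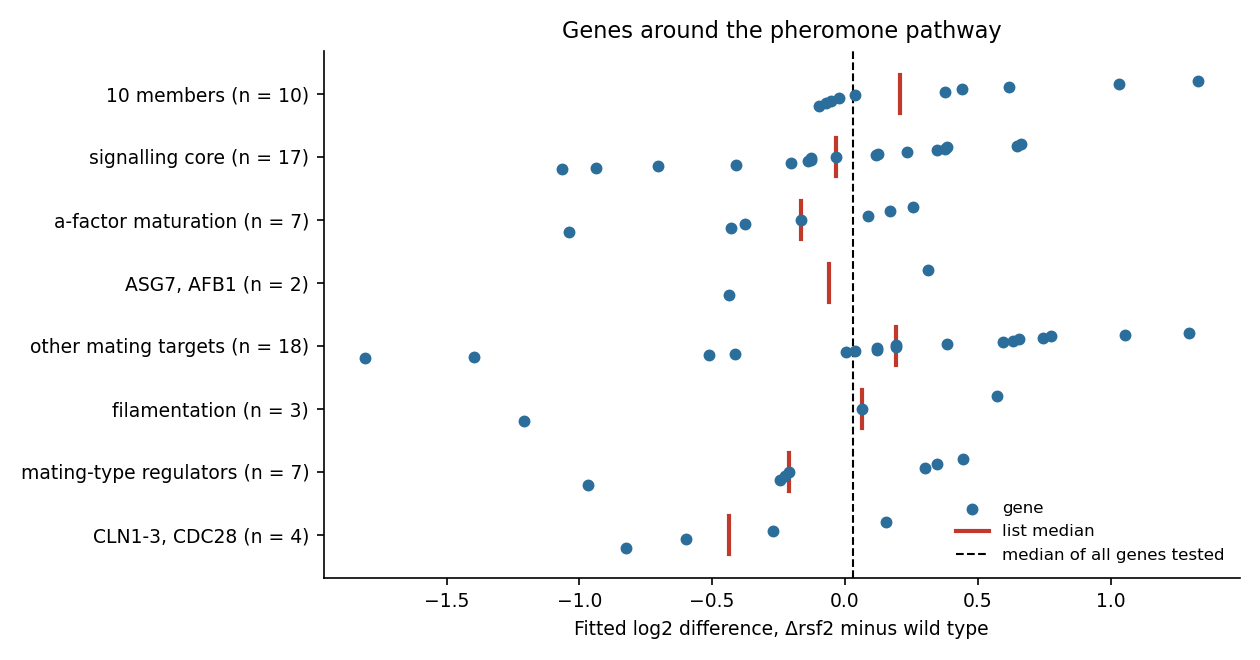
Fitted log2 difference (Δrsf2 minus wild type) of each tested gene, in rows for the 10 members and 7 lists around the pathway, one of them ASG7 and AFB1; red bars are list medians and the dashed line the median of all genes tested. The medians run from -0.44 to 0.21, and each row has genes on both sides of 0.

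Ste12 also serves filamentous growth together with Tec1, and those genes were split. FLO11, the flocculin of filamentous growth, had 59.3, 117 and 222 for the wild-type arrays and 33.0 and 75.6 for the mutant arrays, a log2 difference of -1.21 ± 0.70 (SE), with overlapping groups. PGU1, a pectin-degrading enzyme, was at 0.57 ± 0.47, with 36.2, 15.0 and 26.1 for the wild-type arrays and 73.4 and 26.6 for the mutant arrays. The 3 genes of this list had a median of 0.07, which has no settled direction, since it was -0.61 without Δrsf2 replicate 1, 1.26 without replicate 2, 1.02 within the high spike-in set and -1.09 within the low one.

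Regulators of mating-type genes and the targets of Far1 were read last. Of 7 regulators 3 were higher and 4 lower, with a median log2 difference of -0.21, which was 0.15 in the high spike-in set, 0.21 in the low one and 0.26 without Δrsf2 replicate 1. CYC8, part of the general corepressor with Tup1, was at -0.97 ± 0.64 (SE), with 344, 653 and 311 for the wild-type arrays and 354 and 125 for the mutant arrays. SIR2, the histone deacetylase that silences the spare mating-type loci, was at 0.45 ± 0.53, with both mutant arrays (333 and 258) above the wild type (204, 206 and 237). Of the G1 cyclin genes that Far1 acts on through their proteins, CLN1 had 503, 826 and 488 for the wild-type arrays but 1058 and 142 for the mutant arrays, and CLN2 56.9, 154 and 78.6 against 88.9 and 6.90. CLN1 was highest in Δrsf2 replicate 1, the array on which FAR1 was also highest, and lowest in Δrsf2 replicate 2. Their fitted differences were -0.60 ± 0.78 and -0.82 ± 0.68, and the median of the 4 genes CLN1, CLN2, CLN3 and CDC28 was -0.44. It was -1.36 without Δrsf2 replicate 1, 0.43 without replicate 2, 0.79 within the high spike-in set and -1.41 within the low one, so its direction rests on 1 array.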

How the data were processed

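The authors made the deposited intensities, which are on a linear scale with 1 value for each probe set, with MAS5, a step named by the submitters' processing notes, while its version, its settings and any detection calls are not given in the sources used here. Probe sets numbered 9335 in all: 60 controls, 6504 annotated to 1 gene, 328 to several and 2443 to none. Gene identifiers linked all 6504 to the R64 gene table, which gave names and lengths only. Arrays were rescaled so that the 2% trimmed mean was 500 on each, a floor was set at the 10th percentile, and log2 was taken. The probe set of the highest mean log2 signal stood for each gene. The 95 genes at the floor on all arrays were not tested, which left 5561, and no filter on mean signal was used, so that all 10 members entered.

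Groups were compared with limma 3.58.1 in R 4.3.3 (lmFit, then eBayes with a trend), using the 5 arrays, a group term and Benjamini-Hochberg adjustment. The fit was tested on simulated data. A size rule counted genes at least 2-fold apart without overlap. Besides the members, up to 2 genes of smallest p per list were named, RSF2 as a check, and marker lists by signal. Other names (GPA1, FUS3, FIG1, PRM6, PRM9) were chosen after their values were seen. Members and lists were chosen with earlier results of these data known, and AFB1, listed at first as a-specific, is treated here as a gene of α cells. Precision is limited by the number of arrays. Promoter and protein sequences were not analysed here. Alternatives covered the scaling, the floor, a signal filter, the probe sets, blocks, array weights and single arrays left out.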

Additional observations from a re-analysis of the deposited data

How the results depend on the processing

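Of 18 alternative settings 17 allowed a test, and no member passed the limma threshold in any of them. Over all genes 0 were called in these settings except without Δrsf2 replicate 2, so that leaving out single arrays gave 0 to 138, none of them a member. Of the members at least 2-fold apart without overlap, FAR1 was the one gene in most settings. The number was 0 with the filter at the 25th percentile of mean signal, which kept 5 of the 10 members and not FAR1. It was 2 without a floor (FAR1 and FUS1), where 241 of all genes were higher and 157 lower by this rule. With any single wild-type array left out it was 1. Without Δrsf2 replicate 1 FAR1 was at 0.77, under 2-fold, and without replicate 2 FAR1 was at 1.89 and MFA2 at 2.79. Within the high spike-in set FAR1 was at 2.22, MFA2 at 1.63 and AGA1 at 1.42, where the median of all genes was 0.28. That set holds 1 array against 1, so the groups of all 10 members were apart there. Within the low set, which holds 1 mutant array, AGA2 was at 1.04. In the values as deposited the 1 member was BAR1, lower at -1.23, against -0.07 after rescaling. By the same rule 1179 of all genes were lower and 2 higher as deposited. The number higher by value was 2 as deposited and 3 with the filter, and 6 to 9 with single arrays left out. The members' median was -0.96 as deposited, where the unscaled Δrsf2 replicate 1 moved the median of all genes to -1.08, 0.036 with the higher floor and 0.036 with the filter, 0.41 with the mean of probe sets, 0.41 with the other MFA1 probe set (added after the data were seen), 0.41 within the high spike-in set, and 0.08 to 0.32 with single arrays left out.

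Signs turned where pooled differences were small, but also for genes with larger ones, such as MFA2 (1.03) and GIC2 (-1.81). As deposited, the unscaled Δrsf2 replicate 1 lowered the log2 differences of genes in general, with a median of -1.08 over all genes. The turns in those values go with that common shift and are not specific to the genes. The log2 differences there were -1.12 for MFA1, -0.13 for MFA2, -0.72 for AGA1 and -0.79 for AGA2. For STE18 the value was -0.50, for ASG7 -0.85, for PGU1 -0.23 and for SIR2 -0.71. Within the high spike-in set they were -0.97 for MFA1, 0.89 for BAR1, 0.50 for STE6, -0.35 for AGA2, -0.62 for ASG7, 0.46 for GIC2, 0.042 for CYC8, 0.64 for CLN2 and 1.07 for CLN1. Within the low set they were 0.053 for STE2, -0.15 for MFA2 and 0.24 for STE12. With that set as a block STE2 was at 0.0029 and MFA1 at -0.16. MFA1 was at -0.026 with arrays centred on medians, and ASG7 at -0.22 with quantile normalisation and -0.083 with the higher floor. With the replicate block MFA1 was at -0.34, BAR1 at 0.050 and STE6 at 0.057, and no gene was called. Same-numbered arrays deviated together with a correlation of 0.295 for replicate 1 and -0.0716 for replicate 2, and the labels do not say that numbers pair cultures.

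With single arrays left out, values ran from -0.25 to 0.14 for STE2, -0.34 to 0.62 for MFA1, -0.72 to 2.79 for MFA2, -0.54 to 0.39 for BAR1, -0.38 to 0.057 for STE6, -0.10 to 0.80 for AGA1, -0.24 to 0.99 for AGA2 and -0.21 to 0.17 for STE12. They ran from -0.086 to 0.81 for ASG7, -0.12 to 1.26 for PGU1, -1.65 to 0.0080 for CLN2 and -2.05 to 0.85 for CLN1. FAR1 (0.77 to 1.89) and FUS1 (0.24 to 0.99) kept their sign there and in each other setting that tested them. Since their groups did not overlap, leaving out arrays or comparing within a spike-in set could not have turned that sign. Leaving out Δrsf2 replicate 1 or 2 moved the genes at least 2-fold apart without overlap to 634 higher and 472 lower, or 789 and 655. The cause was not tested. Signals near the floor, as for FUS1, limit what can be read.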
